A study of Mus musculus with 6 samples.

Results

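The genes described are the receptors through which thyroid hormone acts and the proteins that set how much hormone reaches them. They are *Thra* and *Thrb*, the nuclear receptors for T3; *Rxra*, *Rxrb* and *Rxrg*, the retinoid X receptors (RXR) with which they pair on DNA; *Dio1* and *Dio2*, the deiodinases that turn T4 into T3; *Slc16a10*, a membrane transporter of thyroid hormone and aromatic amino acids; and *Crym*, which binds T3 in the cytosol. Members were taken by gene symbol from the deposited expression values. All 9 symbols were found, each in a single row among 55573 genes, and 8 of the 9 had enough reads to enter the comparison of 16868 genes. *Dio1* did not.

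Expression was measured by RNA-seq in inguinal white adipose tissue (iWAT), the subcutaneous fat pad of the groin, of 3 mutant and 3 Wt mice, with 1 library per mouse. All 6 mice were males of the C57BL/6NTac strain, 3 months old, untreated and kept on regular chow. The mutant mice were homozygous for the K283Q and K288R substitutions in THRA, made as a knock-in in embryonic stem cells, and so carried the mutation in every tissue and from conception, the thyroid axis included. The study reported no significant difference between mutant and Wt mice in fasting serum T4, T3 or thyroid-stimulating hormone. The Wt mice carried neither substitution and were bred in house, and nothing in the sources used here says that they were littermates of the mutant mice. With whole fat pads, fewer cells of a type and less RNA per cell cannot be told apart, and neither can an effect of THRA in fat from one that arises elsewhere in the animal.

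Thyroid hormone enters cells through membrane transporters, and deiodinases inside the cell activate or inactivate it. The receptors sit on response elements of target genes as heterodimers with RXR, recruiting corepressors without T3 and coactivators with it. RXR is also the partner of many other nuclear receptors, among them the PPAR, LXR and RAR families. In fat, the pathway is known for its part in adipocyte differentiation, lipogenesis, lipolysis and heat production, and deiodinase 2 for raising T3 in brown fat in the cold.

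The 2 substitutions lie in the ligand-binding domain of THRA. *Thra* and *Thrb* encode different residues at the first site and the same residue at the second, so the reference codons of both genes are shown. They are from GRCm38, the assembly also called mm10, with the GENCODE M21 annotation, over codons 278 to 293 of *Thra* (transcript Thra-202) and the aligned codons 346 to 361 of *Thrb* (Thrb-202). Capitals mark the *Thra* codons changed by K283Q and K288R and the *Thrb* codons aligned with them.
Thra: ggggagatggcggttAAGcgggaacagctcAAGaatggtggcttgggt
Thrb: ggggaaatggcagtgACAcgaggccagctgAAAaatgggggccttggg
Both *Thra* codons encode lysine. From these reference codons, the single-base changes that would give the substitutions are A847C and A863G, with base 1 being the A that opens the coding sequence. They fall at positions 98763652 and 98763668 of chromosome 11, in exon 8 of 9 of Thra-202 (98763529 to 98763787, plus strand). These positions were derived from the codons, and their spacing differs from that of the transcript positions stated in the study's methods. At the first site *Thrb* encodes threonine (codon 351), and at the second it encodes lysine as *Thra* does (codon 356). In this window 14 of 16 residues and 34 of 48 bases were identical between the genes, and over the 406 residues that align (of 410 in THRA and 475 in THRB) 314, or 77.3%, were identical. The 492-residue product of *Thra*, the α2 form that does not bind T3, shares its first 370 residues with the 410-residue receptor, so both carry the mutated codons. The deposited values give 1 value per gene, and neither the *Thra* products nor the mutated and unmutated transcript can be told apart in them.

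The values are normalized CPM, that is, reads on a gene relative to the size of its library, as scaled by the authors for each mouse. The mice had 19607423 to 24228381 reads on genes, and 3 reads corresponded to 0.126 to 0.157 CPM. Fold changes are mutant against Wt on the scale of log2(CPM + 0.5), which understates changes of low genes, with adjusted p-values from limma over the 16868 genes. The adipocyte markers, 7 genes, were all detected, summed to 12401 to 17735 CPM in Wt and 10966 to 17331 CPM in mutant mice, and none of them passed the test. Markers of other tissues were present too. Of 8 mesothelial markers, 7 were higher in mutant mice. All 8 together summed to 42.8 to 85.7 CPM in mutant mice and 8.32 to 34.0 CPM in Wt. The marker that was not higher, *Krt19*, had 28.5 CPM in Wt mouse 1, most of the 34.0 CPM there. The muscle list summed to 10496 to 22435 CPM in Wt and 17201 to 26798 in mutant mice with 1 of 10 genes higher, and the lymphocyte list ran from 6.39 CPM in mutant mouse 1 to 782 in Wt mouse 3. No gene of these lists was at 0 in all mice. By the same test, 5.50% of all genes tested were higher and 2.61% lower in mutant mice. Of 12 circadian clock genes 3 were higher and 6 lower in mutant mice, and the time of day of dissection is not given in the sources used here. The part of these differences in the results that follow was not tested.

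**Figure D1:**
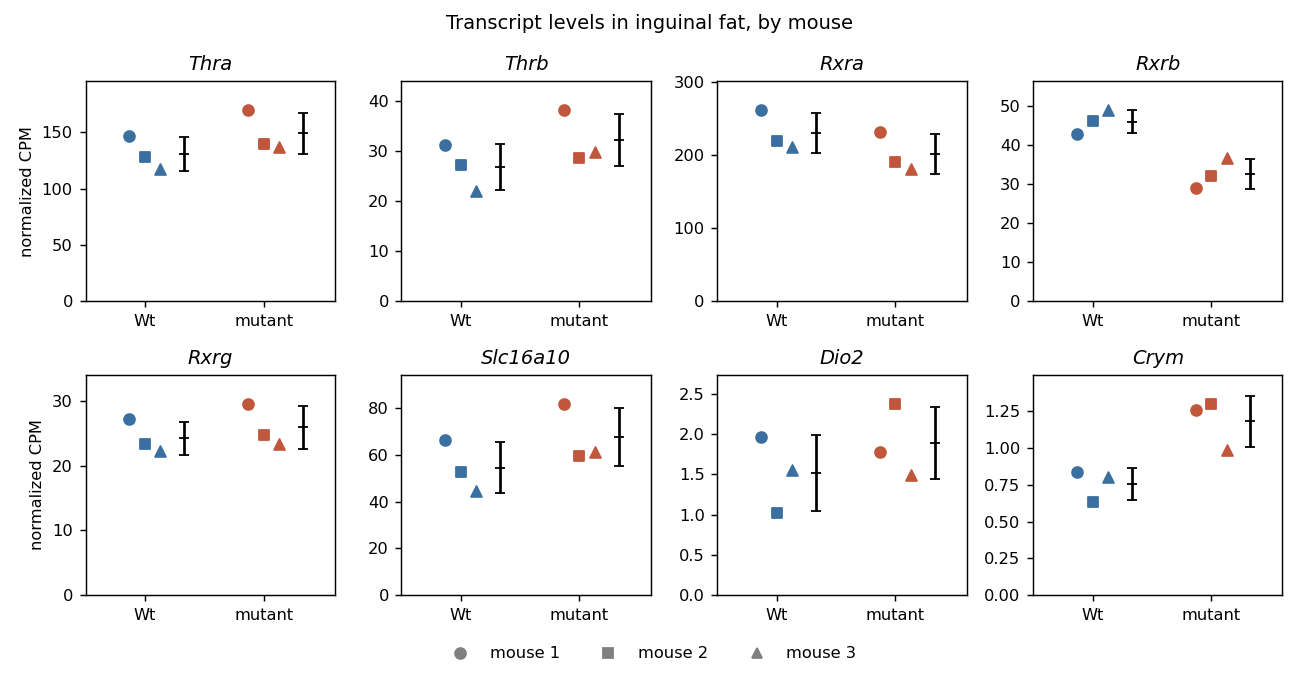
Normalized CPM of the 8 members tested, in each mouse. Blue points are Wt and red points mutant mice, the shape gives the mouse number, and the black bar is the mean with the SD of 3 mice. The genotypes are apart for *Rxrb*, lower in mutant mice, and for *Crym*, higher in mutant mice at about 1 CPM, and overlap for the other 6 genes.

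Of the 8 members tested, 1 passed the FDR threshold of 0.05. It was *Rxrb*, lower in mutant mice. In all, 1368 of 16868 genes passed (8.11%), with 440 lower (2.61%) and 928 higher (5.50%), so 1 member of 8 was close to the share among all genes. The split moved with the scaling, to 1019 higher and 265 lower genes with library size only and 876 higher and 140 lower with the GC correction. The values of the genotypes did not overlap for 2 of the 8 members, *Rxrb* and *Crym*, against 30.6% of all genes tested. The median log2 fold change of the 8 members was 0.22 and that of all genes tested -0.05.

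*Thra* (ENSMUSG00000058756, chromosome 11, 98740638 to 98769006, plus strand) is the mutated gene and the main thyroid hormone receptor of many tissues. Its values were 147, 128 and 117 CPM in Wt mice 1, 2 and 3 and 169.8, 139.9 and 137 CPM in mutant mice 1, 2 and 3, from 2634 to 3509 reads. The highest mouse of each genotype was mouse 1, and the lower mutant mice lay within the Wt range. The means were 131 ± 15.2 and 149 ± 18.3 CPM (SD, n = 3 each), a log2 fold change of 0.19 (SE 0.13, 95% interval -0.12 to 0.49, limma adjusted p = 0.404). The interval runs from 0.922-fold to 1.40-fold, so the RNA of the knock-in allele was neither shown to change nor shown to stay level. After a correction for GC content the log2 fold change was 0.45, with a limma adjusted p of 0.0822.

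On the other strand, the end of *Thra* overlaps *Nr1d1*, which encodes the clock repressor REV-ERBα. They share 263 exonic bases, all within the transcript of the 492-residue product and none within Thra-202. *Nr1d1* had 416, 328 and 299.7 CPM in Wt and 255, 180.3 and 192 CPM in mutant mice, and like *Thra* it was highest in mouse 1 of each genotype. Its difference between genotypes did not pass the threshold (limma adjusted p = 0.0579). The ratio of *Thra* to *Nr1d1* was 0.354, 0.390 and 0.390 in Wt and 0.667, 0.776 and 0.711 in mutant mice. Whether reads were counted by strand is not given in the sources used here, so reads in the shared bases cannot be assigned to either gene with certainty.

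*Thrb* (ENSMUSG00000021779, chromosome 14, 17660261 to 18038090) encodes the second T3 receptor, which is not mutated in these mice. It had 31.2, 27.2 and 22.1 CPM in Wt mice and 38.3, 28.7 and 29.8 CPM in mutant mice. The genotypes overlapped and mouse 1 was again the highest of each. This gave a log2 fold change of 0.26 (SE 0.17, 95% interval -0.14 to 0.66, limma adjusted p = 0.374). Per kilobase of exon, *Thrb* made up 11.3 ± 0.664% of the receptor transcripts in Wt and 11.9 ± 0.504% in mutant mice, and the shares of the genotypes overlapped (exact permutation test, two-sided p = 0.4). With 3 mice against 3 such a test cannot go below 0.1.

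*Rxrb* (ENSMUSG00000039656, chromosome 17, 34031812 to 34038399), which encodes RXRβ, a widely expressed RXR, had 42.9, 46.1 and 49.1 CPM in Wt mice and 29.1, 32.0 and 36.6 CPM in mutant mice. Every mutant mouse was below every Wt mouse. The means were 46.0 ± 3.06 and 32.6 ± 3.76 CPM, 0.708 times the Wt level, with a log2 fold change of -0.50 (SE 0.11, 95% interval -0.76 to -0.24, limma adjusted p = 0.0432). *Rxrb* was lower in the mutant in 19 of 19 processing alternatives and passed the threshold in 6 of them. Its longest transcript has a GC content of 61.4%, the highest of the members by this measure. After a correction for GC content the log2 fold change was -0.24 (limma adjusted p = 0.320). With 1 mouse left out the adjusted p was 0.0445 to 0.150, and the call held only without mutant mouse 3.

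**Figure D2:**
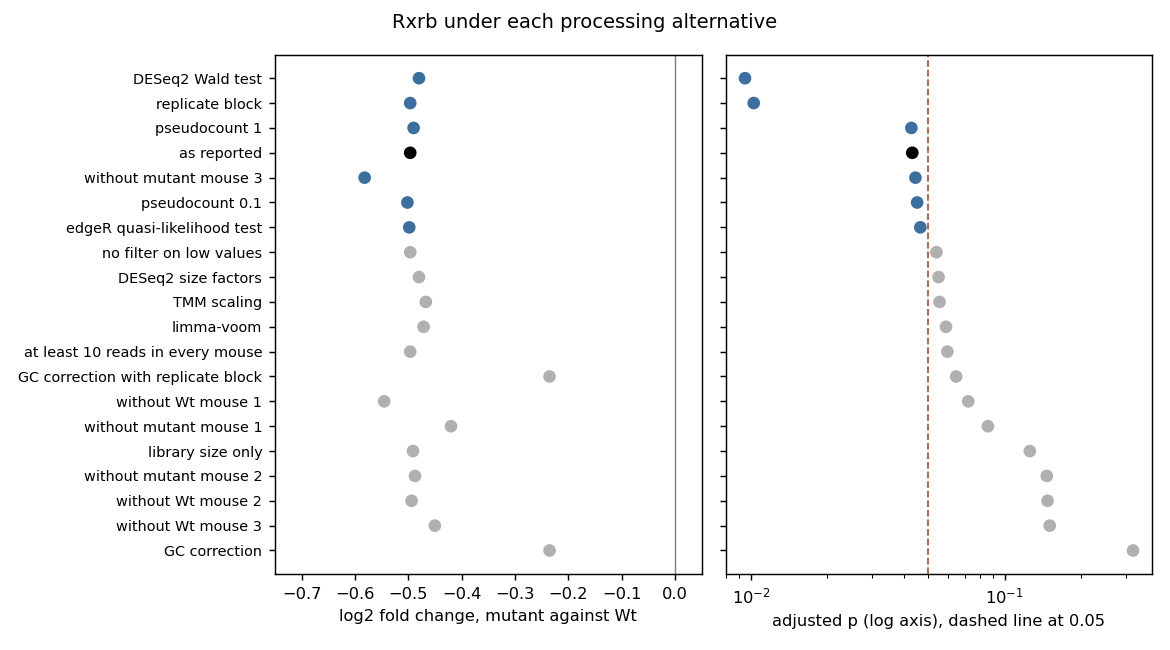
*Rxrb* under each processing alternative, ordered by adjusted p: the log2 fold change, mutant against Wt, on the left and the adjusted p on a log axis on the right, with the threshold of 0.05 dashed. Black is the reported value, blue points are alternatives that pass the threshold and grey points those that miss it. All values are below 0, between -0.58 and -0.24, and the adjusted p-values run from 0.00948 to 0.320.

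*Rxra* (ENSMUSG00000015846, chromosome 2, 27676440 to 27762957) encodes RXRα, the partner of PPARγ in adipocytes. It had 263, 219.9 and 211 CPM in Wt and 233, 190.5 and 182 CPM in mutant mice. Mutant mouse 1 lay above 2 of the Wt mice, so the genotypes overlapped. Mutant against Wt, the log2 fold change was -0.20 (SE 0.13, 95% interval -0.52 to 0.12, limma adjusted p = 0.399), and -0.04 after the correction for GC content.

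*Rxrg* (ENSMUSG00000015843, chromosome 1, 167598384 to 167639623) encodes RXRγ, which is best known from skeletal muscle and brain. It had 27.1, 23.3 and 22.3 CPM in Wt and 29.6, 24.8 and 23.3 CPM in mutant mice, overlapping ranges. The log2 fold change was 0.09 (SE 0.13, 95% interval -0.21 to 0.40, limma adjusted p = 0.674), and without mutant mouse 1 it was -0.01. The muscle list summed to 22435, 20105 and 10496 CPM in Wt mice 1, 2 and 3, the order of *Rxrg*, though some of its genes had another order. It summed to 26798, 17201 and 26710 CPM in mutant mice 1, 2 and 3, where mouse 2 was the lowest and *Rxrg* was lowest in mouse 3. The adipocyte list had the order of *Rxrg* in both genotypes, with 17735, 13576 and 12401 CPM in Wt and 17331, 14021 and 10966 CPM in mutant mice. The part of either list in the *Rxrg* values was not tested.

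**Figure D3:**
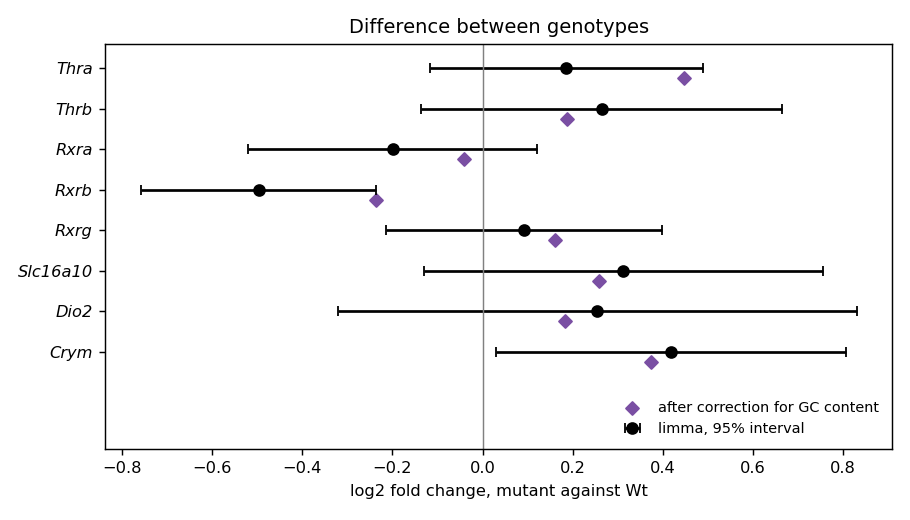
Log2 fold change of the 8 members, mutant against Wt, with the 95% interval from limma (black) and the value after correction for GC content (violet diamonds, no interval). The intervals of *Rxrb* and *Crym* leave out 0. The correction moves *Rxrb* from -0.50 to -0.24 and *Thra* from 0.19 to 0.45.

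Levels of different genes can be compared only per length, here as CPM per kilobase of exon. The length is the union of a gene's exons, 4614 bases for *Thra*, of which a single transcript, Thra-201, has 2452. With the longest transcript as the length, the ratio of summed RXR to summed receptor transcripts in Wt mice fell from 2.02 to 1.33. The order of genes given here holds for the exon union, and was not examined with the other length. *Rxra* was the most abundant member in Wt mice (mean 42.3), followed by *Thra* (28.3), *Rxrb* (11.6), *Rxrg* (10.5), *Slc16a10* (7.41) and *Thrb* (3.62). In mutant mice the means were 36.9 for *Rxra*, 32.2 for *Thra*, 11.3 for *Rxrg*, 9.19 for *Slc16a10*, 8.20 for *Rxrb* and 4.36 for *Thrb*. *Rxra* and *Thra* did not overlap in Wt mice (lowest *Rxra* 38.7, highest *Thra* 31.9) but did in mutant mice (33.2 and 36.8). *Rxrg* and *Rxrb* overlapped in Wt mice and were apart in mutant mice. *Rxrb* and *Slc16a10* were apart in Wt mice and overlapped in mutant mice (7.33 to 9.21 and 8.10 to 11.1). *Dio2* and *Crym* were far lower, under 0.5 per kilobase in every mouse, and overlapped with each other in both genotypes.

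The sum of the RXR transcripts was 64.5 ± 5.43 per kilobase in Wt and 56.4 ± 5.59 in mutant mice, and that of the receptors, *Thra* plus *Thrb*, 31.9 ± 3.89 and 36.6 ± 4.66. Neither sum separated the genotypes (exact permutation test, two-sided p = 0.3 for each), and these tests had not been planned. Their ratio within a mouse, a measure chosen after the values were seen, was 1.96, 1.97 and 2.14 RXR per receptor transcript in Wt and 1.50, 1.57 and 1.56 in mutant mice. All mutant mice were below all Wt mice, with means of 2.02 ± 0.101 and 1.54 ± 0.0415, a difference of -0.48 (exact permutation test, two-sided p = 0.1, the smallest 3 against 3 can give). The difference was -0.56 after the correction for GC content and -0.33 when the longest transcript was used as the length. Because the ratio has *Thra* in it, the shared bases with *Nr1d1* bear on it as well.

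Among the RXR transcripts, *Rxra* made up 65.5 ± 2.22% in Wt and 65.3 ± 2.34% in mutant mice (exact permutation test, two-sided p = 0.7). The share of *Rxrb*, not among the planned tests, was 18.1 ± 2.58% in Wt and 14.7 ± 2.92% in mutant mice, with overlapping ranges (exact permutation test, two-sided p = 0.2). The share of *Rxrg*, also chosen after the values were seen, was 16.7%, 16.4% and 16.0% in Wt and 20.5%, 20.1% and 19.3% in mutant mice. Here the genotypes were apart by 3.63 percentage points (exact permutation test, two-sided p = 0.1), although the level of *Rxrg* itself overlapped between them. After the correction for GC content the difference was 2.49 percentage points.

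**Figure D4:**
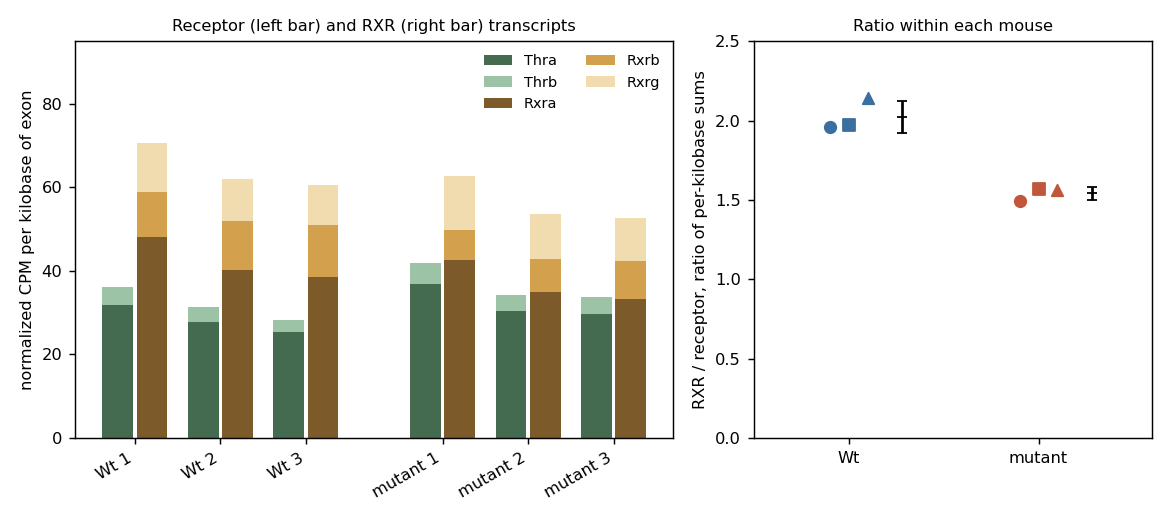
On the left, CPM per kilobase of exon in each mouse, stacked for the receptors (left bar of each pair) and for RXR (right bar). On the right, the ratio of both sums in each mouse, with the mean and SD of 3 mice in black. The Wt mice lie at 1.96 to 2.14 and the mutant mice at 1.50 to 1.57.

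*Dio2* (ENSMUSG00000007682, chromosome 12, 90724552 to 90738438), the deiodinase that makes T3 inside cells, was low in these pads. It had 1.97, 1.02 and 1.56 CPM in Wt and 1.78, 2.38 and 1.50 CPM in mutant mice, from 21 to 53 reads. Wt mouse 2 was the lowest and mutant mouse 2 the highest, and the genotypes overlapped. Its log2 fold change was 0.25 (SE 0.24, 95% interval -0.32 to 0.83, limma adjusted p = 0.533). The brown and beige adipocyte list, in whose cells *Dio2* is best known, summed to 123 to 166 CPM in Wt and 81.0 to 129 CPM in mutant mice. Of its 5 genes tested 1, *Ucp1*, was lower, where 2.61% of all genes tested were. *Dio1* (ENSMUSG00000034785, chromosome 4, 107291465 to 107307169), the deiodinase of liver, kidney and thyroid, had 3 reads (0.135 CPM) in mutant mouse 2 and 0 in the other mice. At these depths a count of 0 allows up to 0.126 to 0.157 CPM, depending on the mouse, which covers counting error only. No difference in *Dio1* was detectable at this depth.

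*Slc16a10* (ENSMUSG00000019838, chromosome 10, 40033532 to 40142258) encodes the transporter MCT10. It had 66.2, 52.8 and 44.4 CPM in Wt and 82.0, 59.6 and 61.3 CPM in mutant mice. Wt mouse 1 was above 2 of the mutant mice. Its log2 fold change was 0.31 (SE 0.18, 95% interval -0.13 to 0.76, limma adjusted p = 0.348), an interval that allows a rise of up to 1.69-fold.

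*Crym* (ENSMUSG00000030905, chromosome 7, 120186380 to 120202111) encodes μ-crystallin, which holds T3 in the cytosol. It had 20, 13 and 19 reads in Wt and 24, 29 and 21 reads in mutant mice, or 0.838, 0.632 and 0.799 CPM against 1.26, 1.30 and 0.983 CPM. Every mutant mouse was above every Wt mouse, at a level where a handful of reads sets the order. The means were 0.756 ± 0.109 and 1.18 ± 0.173 CPM, with a log2 fold change of 0.42 (SE 0.16, 95% interval 0.03 to 0.81). The difference did not pass the threshold (limma adjusted p = 0.179, unadjusted p = 0.0385, a level that 4075 genes, or 24.2%, were under).

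Mice of the same genotype differed from one another in a shared way. *Thra*, *Thrb*, *Rxra*, *Rxrg* and *Slc16a10* were each highest in mouse 1 of both genotypes, 5 of the 8 members, where 29.7% of all genes tested were. *Rxrb* ran the other way and was lowest in mouse 1 of both genotypes, as 28.8% of genes were. *Dio2* and *Crym* had their highest mutant value in mouse 2. The adipocyte list was also highest in mouse 1 of each genotype, at 17735 CPM in Wt and 17331 CPM in mutant mice, and the lymphocyte list was lowest in mouse 1 of each, at 323 CPM (against 679.9 and 782) in Wt and 6.39 CPM (against 420.1 and 634) in mutant mice. The part of these lists in this pattern was not tested.

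**Figure D5:**
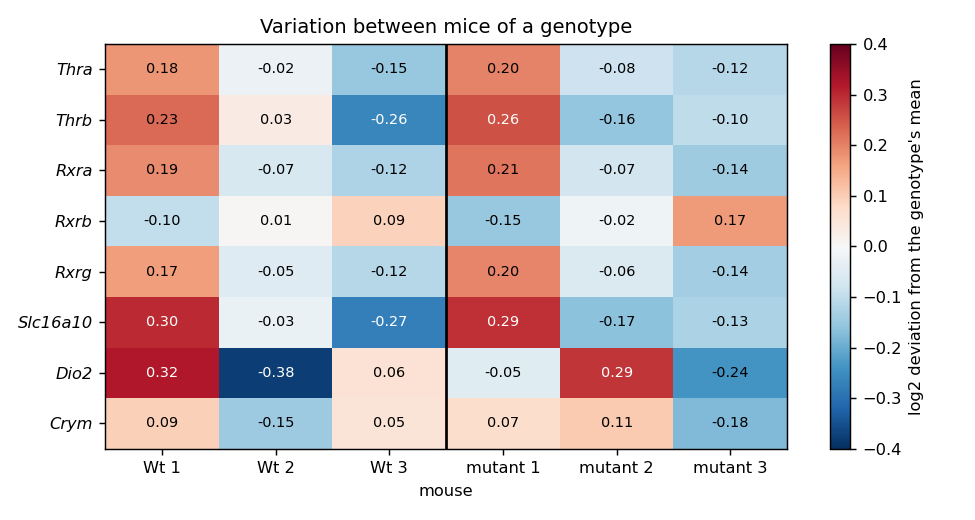
Deviation of each mouse from the mean of its genotype, in log2 of CPM + 0.5, for the 8 members. Red is above and blue below the genotype's mean, and the number in each cell is the deviation. Mouse 1 is red for 5 receptor and transporter genes in both genotypes, and *Rxrb* is blue in mouse 1 and red in mouse 3 of both.

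The genes whose log2 values followed *Thra* most closely over the 6 mice were *Psmd1*, a proteasome subunit (Pearson r 0.997), *Ghitm*, a mitochondrial membrane protein (0.997), and *Klhl13*, an adaptor of a ubiquitin ligase (0.996). Those closest to *Rxrb* were *Fam193b* (0.998), *Gse1* (0.998) and *Uhrf1bp1l* (0.996). With 6 mice such values are common: 404 genes were above 0.95 with *Thra* and 529 with *Rxrb*. The 6 points share their libraries and genotype, and the values describe these mice only.

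Of 15 other genes of thyroid hormone transport and metabolism, 9 had enough reads to be tested. Of these, 0 were higher and 1 was lower in mutant mice, against 5.50% and 2.61% of all genes tested. The median log2 fold change was -0.21, against -0.05 over all genes. The lower gene was *Slco2b1*, an organic anion transporter that also carries thyroid hormone conjugates. It had 178, 164 and 169 CPM in Wt and 111, 118 and 105 CPM in mutant mice. The log2 fold change was -0.61 (SE 0.08, limma adjusted p = 0.00753), and it passed whichever mouse was left out. *Sult1a1*, a sulfotransferase that acts on iodothyronines, was the most abundant of the list per length. It had 145, 112 and 118 CPM in Wt and 240.2, 183 and 163 CPM in mutant mice, without overlap, and missed the threshold (log2 fold change 0.63, limma adjusted p = 0.0779). *Dio3*, the deiodinase that inactivates T4 and T3, had 9, 9 and 7 reads in Wt and 2, 6 and 2 reads in mutant mice. The plasma carrier *Ttr* had 0, 0 and 1 reads in Wt and 8, 15 and 8 reads in mutant mice. Both were too low to be tested, and the carrier *Serpina7* was at 0 in all mice.

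Of 14 other nuclear receptors that pair with RXR, 13 were tested. Of these, 1 was higher and 2 were lower in mutant mice, against 5.50% and 2.61% of all genes tested. The median log2 fold change was -0.20, against -0.05 over all genes. *Nr1h2*, the oxysterol receptor LXRβ, had 91.0, 87.3 and 94.8 CPM in Wt and 62.0, 63.6 and 62.7 CPM in mutant mice (log2 fold change -0.53, SE 0.07, limma adjusted p = 0.00733). It passed whichever mouse was left out, and after the correction for GC content its limma adjusted p was 0.0861. *Rarg*, a retinoic acid receptor, had a log2 fold change of -0.39 (SE 0.09, limma adjusted p = 0.0483), and missed the threshold without each mouse in turn (0.0696 to 0.164) and after the correction for GC content (0.314). *Nr1i3*, the xenobiotic receptor CAR, had 0.796, 0.681 and 0.547 CPM in Wt and 3.93, 3.86 and 4.30 CPM in mutant mice. The log2 fold change was 1.95 (SE 0.15, limma adjusted p = 0.00169). Of its 4414 exonic bases, 3304 are shared with *Tomm40l* on the other strand. *Tomm40l* had 37.9, 31.6 and 32.0 CPM in Wt and 36.1, 28.2 and 33.2 CPM in mutant mice, overlapping ranges. Without strand, the reads in the shared bases cannot be assigned to either gene. *Pparg*, the adipocyte partner of RXRα, was the most abundant of the list per length and had a log2 fold change of 0.13 (SE 0.20, limma adjusted p = 0.702).

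Of 9 genes known to respond to T3, 0 were higher and 3 lower in mutant mice, against 5.50% and 2.61% of all genes tested. The median log2 fold change was 0.06, against -0.05 over all genes. *Hr*, a corepressor of the receptors, had 92.3, 70.9 and 63.7 CPM in Wt and 39.1, 32.0 and 32.0 CPM in mutant mice (log2 fold change -1.11, SE 0.16, limma adjusted p = 0.0102). *Cpt1a*, which admits fatty acids to mitochondria, had a log2 fold change of -0.62 (limma adjusted p = 0.0159). The study's own analysis of its inguinal fat RNA-seq reported *Cpt1a*, *Klf9* and *Fasn* as not significant (FDR above 0.05). The call for *Cpt1a* therefore differs between the analyses, and the reason was not tested. *Ucp1*, the uncoupling protein of brown and beige fat, had 15.5, 7.39 and 15.3 CPM in Wt and 3.46, 3.23 and 3.51 CPM in mutant mice (log2 fold change -1.69, limma adjusted p = 0.0187). *Cpt1a* and *Ucp1* each kept the call in 2 of the 6 comparisons that left out a mouse, and *Hr* in 5, with an adjusted p of 0.0530 without mutant mouse 2. The lipogenic genes *Thrsp*, *Me1*, *Fasn* and *Acaca* had log2 fold changes of 0.51, 0.53, 0.36 and 0.60, and none of these passed (limma adjusted p = 0.116 to 0.619). *Klf9* and *Gpd2* had log2 fold changes of 0.05 and 0.06 (limma adjusted p = 0.887 and 0.858).

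The study examined how THRA and the cAMP-response factor CREB meet at gene promoters, so the promoters of the members were searched for the CREB element TGACGTCA, its half-site TGACG, the receptor half-site AGGTCA and its direct repeat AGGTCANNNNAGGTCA, on both strands. RefSeq windows on GRCm38.p6, from 250 bases before to 50 bases after a gene's start, were found for 7 of the 9 members, 11 windows in all. A window of *Rxrb*, the member that passed the threshold, is shown first (chr17:34031562-34031861, plus strand). The CREB half-site is in capitals, here on the other strand as CGTCA, from 119 bases before the start. The other *Rxrb* window (chr17:34032100-34032399) lacked the half-site. The *Dio2* window is shown as the only 1 of the 11 windows with the whole CREB element, also in capitals (chr12:90738989-90739288, minus strand), from 95 bases before the start.
Rxrb: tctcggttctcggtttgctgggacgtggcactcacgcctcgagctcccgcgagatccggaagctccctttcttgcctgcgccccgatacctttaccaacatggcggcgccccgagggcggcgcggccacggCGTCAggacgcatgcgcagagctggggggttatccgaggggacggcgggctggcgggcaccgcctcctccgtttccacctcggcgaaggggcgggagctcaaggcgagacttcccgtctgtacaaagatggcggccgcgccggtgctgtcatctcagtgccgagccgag
Dio2: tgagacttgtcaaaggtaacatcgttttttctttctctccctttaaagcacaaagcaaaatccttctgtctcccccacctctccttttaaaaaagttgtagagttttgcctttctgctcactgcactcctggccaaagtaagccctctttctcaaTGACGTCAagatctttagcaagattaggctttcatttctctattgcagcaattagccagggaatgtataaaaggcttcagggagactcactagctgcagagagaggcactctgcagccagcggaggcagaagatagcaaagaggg
The half-site lies within the whole element and was counted there too. It was found in 3 of the 11 windows, those of *Rxrb* and *Dio2* shown here and 1 of *Thrb*, from 56 bases before the start, and neither *Dio2* nor *Thrb* passed the threshold. Of 32851 promoters, 1.79% held TGACGTCA, 20.8% TGACG and 16.3% AGGTCA, and 5 held the direct repeat, none of them a member's. AGGTCA was found in windows of *Thrb*, *Rxra* and *Rxrg* and in neither of the *Rxrb* windows. A match describes the letters of these windows and no binding.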

How the data were processed

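RNA was measured in 6 mice, with genotype and mouse number taken from the labels. The authors deposited a normalized signal per gene, CPM with a scaling factor per mouse (0.962 to 1.109), per the file values. Per the labels, the submitters' processing notes list mm10, Bowtie2 2.1.0, RSEM 1.2.15 and edgeR, without roles, and strand use is not given. In each mouse 100.0% of values above 0 were whole multiples (within 0.1) of 1 read, so the reads were recovered. Mice of a genotype differed by more than sampling noise, with 19.6 to 66.1 chi-square units per degree of freedom, and all 6 were kept.

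Genotypes were compared with limma 3.58.1 (R 4.3.3, mean-variance trend) on log2(value + 0.5), with Benjamini-Hochberg adjustment and an FDR of 0.05, for 16868 genes whose recovered reads passed filterByExpr (edgeR 4.0.16). The tests had been planned for either counts or normalized values. Of the permutation tests, only those of the *Thrb* share and the *Rxra* share had been planned. The p-values measure the spread between these mice. On these reads, 1250 genes passed edgeR's quasi-likelihood test, 1238 of which limma called too. DESeq2 1.42.0, limma-voom, other scalings, filters and pseudocounts, a GC correction (median log ratio removed in 20 bins), a block for the mouse number and the removal of single mice were the alternatives. Statistics were tested on simulated data. There limma recovered 43 of 109 genes with a log2 change of 1 in size and 75 of 91 with a change of 2. It also called 11 unchanged genes, a share of its calls above the FDR of 0.05. Each gene was drawn independently, so variation shared by genes within a mouse was not simulated. Smaller changes, such as those of the members, were not simulated.

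The members and gene lists were chosen with earlier results of these data known. Genes named are the members, the genes of fixed lists that passed the FDR or are the most abundant per length, and the 3 genes most like *Thra* and *Rxrb* in pattern. Others in the lists (*Dio3*, *Ttr*, *Serpina7*, *Klf9*, *Gpd2*, *Krt19* and the lipogenic genes), and the overlapping *Nr1d1* and *Tomm40l*, were named after their values were seen. Levels per length used the union of exons in GENCODE M21 (GRCm38). Promoters are from RefSeq (GRCm38.p6). Python 3.11.15, pandas 2.3.3, SciPy 1.17.1, Biopython 1.88 and Matplotlib 3.10.9 were used.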

Additional observations from a re-analysis of the deposited data

How the results depend on the processing

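*Rxrb* was lower in mutant mice under all 19 alternatives and missed the FDR threshold in 13. Its log2 fold change was -0.50 (adjusted p = 0.0538) with no filter on low values, -0.50 (0.0594) with at least 10 reads in every mouse, -0.49 (0.126) with library size only, -0.47 (0.0554) with TMM, -0.48 (0.0549) with DESeq2's size factors, -0.47 (0.0587) with limma-voom, -0.24 (0.320) with the GC correction and -0.24 (0.0644) with the GC correction and the replicate block. Leaving out 1 mouse gave -0.58 to -0.42. The count of members past the FDR was therefore 0 in the first 7 of these and 0 to 1 when a mouse was left out. The cause was not tested. The log2 fold change of *Rxrg* was -0.0056 without mutant mouse 1 and up to 0.18 with another mouse left out. The *Rxra* share of RXR differed by 0.54 percentage points with the longest transcript as the length and by -1.49 to 0.99 with a mouse left out, above 0 without Wt mouse 1 (0.99) and without mutant mouse 3 (0.82). The RXR per receptor ratio differed by -0.33 with the longest transcript, and the *Rxrg* share by 2.49 percentage points with the GC correction, both added after the data were examined. Over all genes, 598 passed with at least 10 reads in every mouse, 2118 with DESeq2's Wald test and 554 to 1005 with a mouse left out, with 840 without Wt mouse 1, 554 without Wt mouse 2, 581 without Wt mouse 3, 587 without mutant mouse 2 and 776 without mutant mouse 3. Of the other thyroid hormone pathway genes, 2 passed with no filter, 2 with library size only and 3 with DESeq2's Wald test, and 1 of the RXR partners passed with the GC correction. The share of higher among called genes also moved, from 928 of 1368 to 1019 of 1284 with library size only and 876 of 1016 with the GC correction, while with the replicate block 1733 of 4063 were higher and 2330 lower, and with the block and the GC correction 1654 of 3253 were higher. The mouse numbers are not shown to pair the mice. Deviations of same-numbered mice correlated across genes at 0.69, 0.06 and 0.56, and mutant mouse 2 correlated best with Wt mouse 3 (0.54). With the replicate block, 4063 genes, 3 members (*Rxrb*, *Rxra* at -0.20 and *Slc16a10* at 0.31, adjusted p = 0.0377 and 0.0385 for the latter pair), 5 other pathway genes and 6 RXR partners passed. With the block and the GC correction, 3253 genes, *Thra* (0.45, adjusted p = 0.00937), 4 other pathway genes and 5 RXR partners passed. Depth limits *Crym* and *Dio2*, at 13 to 53 reads, and *Dio1*, which was not tested.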
